A study of Mus musculus with 10 samples.

Results

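Adrenergic receptors are the cell-surface receptors of noradrenaline and adrenaline. The 8 receptor genes described here, Adra1a, Adra1b, Adra1d, Adra2a, Adra2b, Adra2c, Adrb1 and Adrb3, were found by their symbol in the deposited tables or, for Adra2b and Adrb1, in the gene annotation, and make up 8 of the 51912 genes in the count files. The tissue was large motor neurons of the mouse lumbar spinal cord, cut out by laser capture from frozen sections as 1 pool of about 50 cells per animal and sequenced from polyadenylated RNA by Smart-seq2. The 5 HSA-NRTN mice (3 females, 2 males) carry a transgene in which the human skeletal actin promoter drives neurturin, a GDNF family ligand, in muscle fibres, and the 5 wild-type mice (3 females, 2 males) are their littermates without it. This promoter is active in skeletal muscle, outside the captured neurons. Cells were taken only if the nucleolus could be seen and their area exceeded 200 μm2, so smaller cells are not represented. The sources used here do not give ages. The comparison bears on how a factor secreted by muscle relates to the gene expression of the motor neurons that innervate it.

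Receptors of this family are G protein-coupled. The alpha-1 receptors (Adra1a, Adra1b, Adra1d) couple through Gq to phospholipase C, the alpha-2 receptors (Adra2a, Adra2b, Adra2c) couple through Gi and Go and inhibit adenylyl cyclase, and the beta receptors (Adrb1, Adrb3) couple through Gs and stimulate it. Noradrenergic fibres from the brainstem descend to the ventral horn, where noradrenaline acting on alpha-1 receptors depolarises motor neurons and raises their excitability, while alpha-2 receptors are best known as inhibitory receptors on nerve terminals and cell bodies.

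The members with enough reads to be tested were Adra1a, Adra1b, Adra2a and Adra2c. The stretch of coding sequence that holds the aspartate-arginine-tyrosine codons, a motif at the inner end of the third transmembrane helix by which receptors of this class engage their G protein, is printed for these receptors to show how closely the genes whose reads are compared resemble each other. The 9 bases of the 3 codons are in capitals, and each window has 93 bases of the annotated coding strand from the GENCODE M21 transcripts on GRCm38, at chr19:54046605-54046697 on the plus strand for Adra2a, chr5:35280285-35280377 on the plus strand for Adra2c, chr11:43835615-43835707 on the minus strand for Adra1b and chr14:66637902-66637994 on the plus strand for Adra1a.
Adra2a: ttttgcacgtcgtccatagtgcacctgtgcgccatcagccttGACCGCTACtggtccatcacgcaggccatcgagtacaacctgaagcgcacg
Adra2c: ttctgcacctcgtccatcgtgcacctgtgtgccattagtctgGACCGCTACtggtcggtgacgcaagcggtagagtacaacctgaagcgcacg
Adra1b: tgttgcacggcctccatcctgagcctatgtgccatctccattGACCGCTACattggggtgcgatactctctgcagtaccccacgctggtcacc
Adra1a: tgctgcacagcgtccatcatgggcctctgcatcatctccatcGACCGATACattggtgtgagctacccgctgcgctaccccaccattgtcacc
Adra2a and Adra2c shared 79 of these 93 bases (84.9%), Adra1a and Adra1b shared 72 (77.4%), and the pairs across the alpha-1 and alpha-2 classes shared 51.6% to 58.1%. The members of a class are thus more alike here than members of different classes.

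Each library stands for 1 mouse and held 1875971 to 6641695 gene counts, with 14090 to 19675 genes detected. All 6 motor neuron markers, among them Chat, the enzyme of acetylcholine synthesis, were detected in every library, with summed levels of 2817 to 4183 CPM (counts scaled to library size) in HSA-NRTN and 2139 to 3597 CPM in wild-type mice. Of these markers 5 had a positive log2 fold change of HSA-NRTN over wild-type (all 6: -0.56 to 0.97, median 0.38), none with an unadjusted p under 0.05 in edgeR. For Chat (117 ± 20.2 against 89.5 ± 11 CPM, SD, n = 5 each) the groups did not overlap, as for 1.25% of all tested genes. HSA-NRTN replicate 2 stood apart, with the lowest gene count and the highest sums of astrocyte (716 CPM), oligodendrocyte (922 CPM) and mural cell markers (80.5 CPM). Wild-type replicate 1 stood apart as well, with the fewest genes detected and the largest share of mitochondrial counts (12.9%). For the tested members, fold changes are therefore also given without these libraries, while levels per kb are given without wild-type replicate 1 as well and the lists of other genes with all libraries alone. Marker sums of other cells overlapped between the genotypes, at 28.4 to 716 CPM for astrocytes, 145 to 922 CPM for oligodendrocytes, 43.8 to 249 CPM for interneurons and 5.56 to 80.5 CPM for mural cells in HSA-NRTN libraries, against 38.9 to 269, 75.9 to 331, 5.16 to 373 and 0.198 to 10.3 CPM in wild-type libraries. All 6 oligodendrocyte markers had a positive log2 fold change of HSA-NRTN over wild-type (0.43 to 1.20, median 0.70), none with an unadjusted p under 0.05 in edgeR. The mural marker Rgs5, the 1 of 5 that was tested, was at 19.8 ± 29.2 CPM in HSA-NRTN mice and 3.42 ± 3.95 CPM in wild-type mice (SD, n = 5 each), a log2 fold change of 2.5 (SE 0.97, edgeR unadjusted p = 0.0209, adjusted p = 0.921) that is no smaller than those of Adra2a and Adra1b. The part of these markers in the receptor differences was not tested. A level is an average over the pool, so fewer expressing cells and less RNA per cell cannot be told apart. Both HSA-NRTN males and 1 of the 3 HSA-NRTN females, but 1 of the 5 wild-type mice, belong to the lower of 2 runs of animal numbers, and no label calls these runs litters or batches.

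Adra2a, the alpha-2A receptor through which clonidine and guanfacine act, was the member with the smallest p. Its level was 51, 43.8, 11.7, 22.4 and 8.14 CPM in HSA-NRTN replicates 1 to 5, against 2.07, 5.1, 2.82, 4.13 and 14.5 CPM in wild-type replicates 1 to 5. The groups overlapped only through wild-type replicate 5, which lay above HSA-NRTN replicates 3 and 5. The interneuron marker sum was highest in the libraries of most Adra2a within each group, at 249 and 245 CPM in HSA-NRTN replicates 1 and 2 and 373 CPM in wild-type replicate 5. The other libraries did not follow this order. Those of least Adra2a, HSA-NRTN replicate 5 and wild-type replicate 1, were at 193 CPM each, while HSA-NRTN replicate 3 was at 43.8 CPM and wild-type replicate 4 at 5.16 CPM. The part of these markers was not tested. The mean was 27.4 ± 19.2 CPM in HSA-NRTN mice and 5.72 ± 5.03 CPM in wild-type mice (SD, n = 5 each), a log2 fold change of 2.24 (SE 0.65). In edgeR's quasi-likelihood test the unadjusted p was 0.00355 and the adjusted p 0.516, so the difference did not pass over the 11630 genes tested. The gene (ENSMUSG00000033717) lies on the plus strand of chromosome 19 from 54044151 to 54048982 in GRCm38, within a single merged exon, and no other annotated gene overlaps it.

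Whether Adra2a counted as called depended on the tool and on whether sex was in the model. In the authors' deposited table its log2 fold change was 1.69 (SE 0.36, adjusted p = 0.000593), and no other member passed there. DESeq2 run here without a covariate gave a log2 fold change of 2.26 (SE 0.64) and an adjusted p of 0.0515, and DESeq2 with sex as a covariate, chosen after seeing the data, gave 2.24 (SE 0.45) and an adjusted p of 0.000221. The sources used here do not give the model behind the authors' table or how its log2 fold changes were worked out. Their sizes may therefore not be on the same scale as those of the fits run here. With sex in the edgeR model the unadjusted p became 0.00034 and the adjusted p 0.15, and limma voom gave a log2 fold change of 2.05 (adjusted p = 0.754).

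The libraries of Adra2a also differed by sex. The HSA-NRTN males were at 51 and 43.8 CPM and the HSA-NRTN females at 8.14 to 22.4 CPM. The wild-type males were at 5.1 and 14.5 CPM and the wild-type females at 2.07 to 4.13 CPM. Males and females did not overlap within either genotype, at 2 males and 3 females in each. The share of all genes that separate in this way was not worked out, so this is a description of the values alone. With genotype in the model, its log2 fold change of males over females was 1.72 (SE 0.47, edgeR unadjusted p = 0.00224, adjusted p = 0.364), which did not pass. For sex 11.2% of all genes had an unadjusted p under 0.05, and 0.0086% passed after adjustment. The genotype log2 fold change was 2.25 (SE 0.74) in males alone and 2.24 (SE 0.74) in females alone. Both HSA-NRTN males came from the lower run of animal numbers and both wild-type males from the upper run. For any gene, the genotype and the run cannot be told apart in males alone. The edgeR interaction, male minus female effect, was 0.05 with an SE of 1.14 (unadjusted p = 0.965), a spread that leaves room for a sizeable difference. Leaving out the libraries that stood apart, HSA-NRTN replicate 2 and wild-type replicate 1, lowered the log2 fold change to 1.80 (SE 0.67), and within the upper run of animal numbers, where 2 HSA-NRTN and 4 wild-type libraries remained and the groups overlapped, it was 1.23 (SE 0.80, edgeR unadjusted p = 0.153). The lower run holds 1 wild-type library, so no value within it is given.

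**Figure D1:**
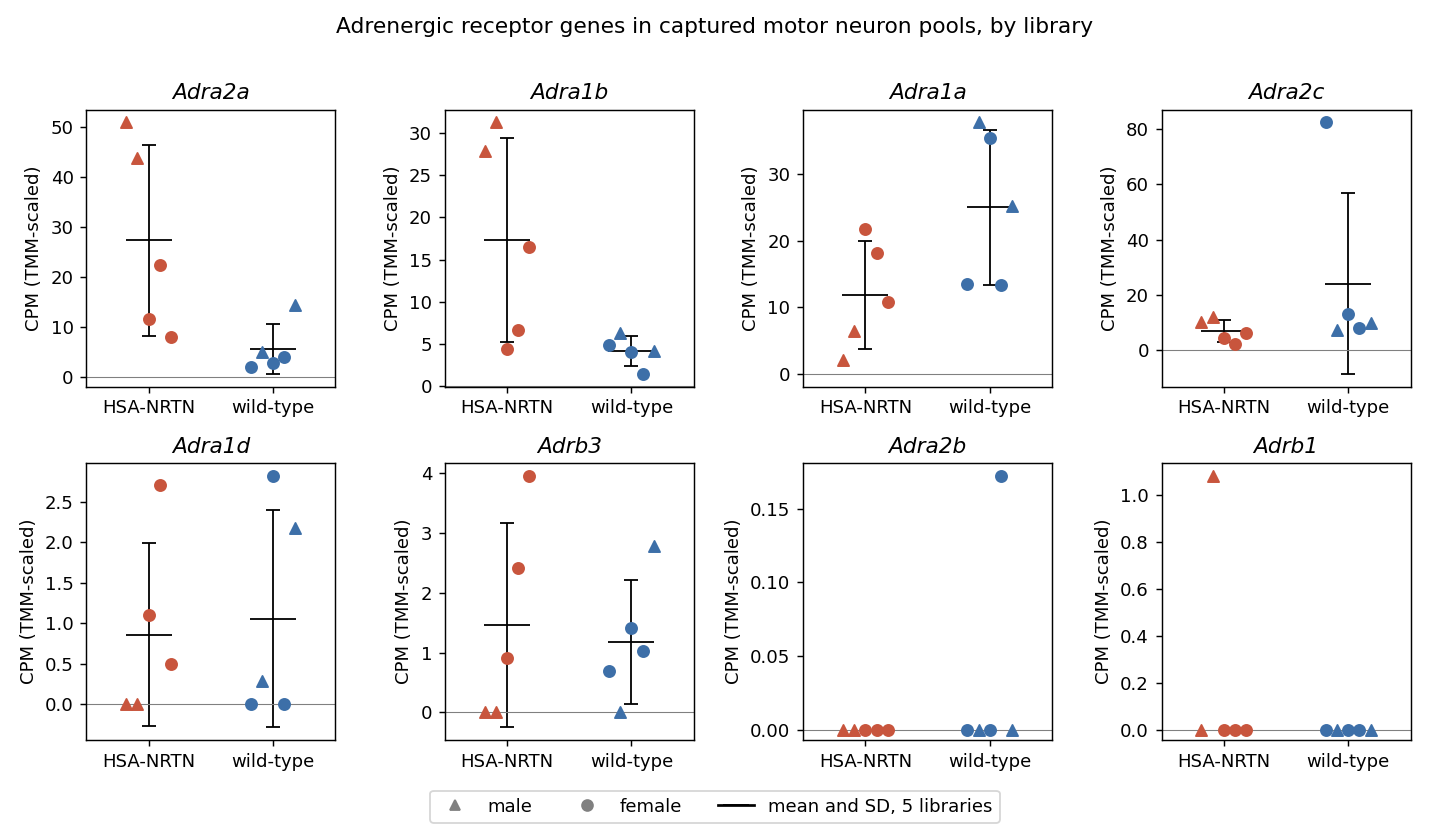
TMM-scaled CPM of each adrenergic receptor gene in the 5 HSA-NRTN (left, red) and 5 wild-type libraries (right, blue). Triangles are males and circles females, and black bars give the mean and SD except for Adra2b and Adrb1, which had 1 and 2 counts in all. The HSA-NRTN males are highest for Adra2a (51 and 43.8 CPM) and Adra1b (27.9 and 31.3 CPM) and lowest for Adra1a (2.08 and 6.49 CPM), and wild-type replicate 1 stands alone for Adra2c (82.4 CPM).

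Adra1b, the alpha-1B receptor, had the same ordering of groups as Adra2a. Its level was 27.9, 31.3, 4.4, 6.56 and 16.5 CPM in HSA-NRTN replicates 1 to 5, against 4.82, 6.23, 3.99, 1.38 and 4.16 CPM in wild-type replicates 1 to 5. All HSA-NRTN libraries but replicate 3 lay above every wild-type library. The mean was 17.3 ± 12.2 CPM in HSA-NRTN mice and 4.12 ± 1.77 CPM in wild-type mice (SD, n = 5 each), a log2 fold change of 2.06 (SE 0.66, edgeR unadjusted p = 0.00678, adjusted p = 0.704) that did not pass. The authors' deposited table gave 1.28 (SE 0.39) and an adjusted p of 0.0797. DESeq2 run here gave an adjusted p of 0.0805, and 0.0493 with sex as a covariate. The gene (ENSMUSG00000050541) lies on the minus strand of chromosome 11 from 43774606 to 43901210, with 5 merged exons.

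The males again held the highest values among HSA-NRTN libraries. They averaged 29.6 ± 2.45 CPM (n = 2) and the females 9.16 ± 6.47 CPM (n = 3), while in wild-type pools males averaged 5.2 ± 1.46 CPM and females 3.39 ± 1.8 CPM. The genotype log2 fold change was 2.49 (SE 0.82) in males alone, where genotype and run cannot be told apart, and 1.45 (SE 0.89) in females alone. The edgeR test of that difference gave an unadjusted p of 0.38. Without HSA-NRTN replicate 2 the genotype log2 fold change was 1.74 (SE 0.68, edgeR unadjusted p = 0.0222). Without both libraries that stood apart it was 1.81 (SE 0.71), and within the upper run of animal numbers 1.56 (SE 0.87, edgeR unadjusted p = 0.0997). HSA-NRTN replicate 1, the other male, had marker sums of 71.8 CPM for astrocytes, 145 CPM for oligodendrocytes, 8.6 CPM for mural cells and 249 CPM for interneurons. The share of all reads listed that was counted to genes was lowest in HSA-NRTN replicates 1, 2 and 5 (23.4%, 13.5% and 24.8%). It was 30.8% to 42.3% in the other libraries. Replicates 1, 2 and 5 also held the most Adra1b and the least Adra1a of all libraries, and the part of this share was not tested.

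Adra1a, the alpha-1A receptor, ran the other way. Its level was 2.08, 6.49, 21.8, 18.1 and 10.8 CPM in HSA-NRTN replicates 1 to 5, against 13.5, 37.7, 35.4, 13.3 and 25.2 CPM in wild-type replicates 1 to 5. Both HSA-NRTN males and 1 HSA-NRTN female lay below every wild-type library, and the other females overlapped the wild-type range. The mean was 11.9 ± 8.11 CPM in HSA-NRTN mice and 25 ± 11.6 CPM in wild-type mice (SD, n = 5 each), a log2 fold change of -1.06 (SE 0.56, edgeR unadjusted p = 0.0808, adjusted p = 0.999), which did not pass. Leaving out both libraries that stood apart, it was also -1.06 (SE 0.58). The authors' deposited table gave -0.77 (SE 0.39) and an adjusted p of 0.495. The gene (ENSMUSG00000045875) lies on the plus strand of chromosome 14 from 66635251 to 66771168, with 5 merged exons.

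The values of Adra1a lay further apart between the males than between the females of the 2 genotypes. In males alone the log2 fold change was -2.92 (SE 0.92, edgeR unadjusted p = 0.0107), with counts of 7 and 12 in the HSA-NRTN males against 133 and 127 in the wild-type males. In females alone it was -0.27 (SE 0.57, edgeR unadjusted p = 0.643). The edgeR interaction, male minus female effect, was -2.63 (SE 1.01, unadjusted p = 0.0211, adjusted p = 0.922), and 5.14% of all genes tested had an unadjusted p under 0.05 in this test while none passed after adjustment. Both HSA-NRTN males came from the lower run of animal numbers and both wild-type males from the upper run, so within males the genotype and the run cannot be told apart. Within the upper run the log2 fold change of Adra1a was -0.92 (SE 0.56, edgeR unadjusted p = 0.127).

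The comparison of Adra2c, the alpha-2C receptor, turned on 1 library. Its level was 10.4, 11.9, 4.58, 2.14 and 6.41 CPM in HSA-NRTN replicates 1 to 5, against 82.4, 7.36, 13.1, 7.92 and 9.72 CPM in wild-type replicates 1 to 5. Wild-type replicate 1 held 359 of the 536 wild-type counts. The log2 fold change was -1.79 (SE 0.74, edgeR unadjusted p = 0.0282, adjusted p = 0.941) with all libraries and -0.46 (SE 0.61, edgeR unadjusted p = 0.465) without wild-type replicate 1, and -0.71 (SE 0.61) when HSA-NRTN replicate 2 was left out too. Within the upper run of animal numbers, which lacks that library, it was -1.15 (SE 0.83, edgeR unadjusted p = 0.191), and with the run as a covariate -1.99 (SE 0.55, edgeR unadjusted p = 0.00263, adjusted p = 0.431). In males alone it turned to 0.37 (SE 0.99), and in females alone, which include wild-type replicate 1, it was -2.96 (SE 0.92, edgeR unadjusted p = 0.00971, adjusted p = 0.998). The interaction with sex (3.36, SE 1.32, edgeR unadjusted p = 0.0235, adjusted p = 0.922) includes that library, a female. DESeq2 without a covariate gave no p for Adra2c, and the authors' deposited table gave -0.89 (SE 0.41, adjusted p = 0.43). The gene (ENSMUSG00000045318) lies on the plus strand of chromosome 5 from 35278319 to 35281763, as 1 exon.

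The remaining members were near or under the limit of detection and were removed by the filter on low counts. Adra1d, the alpha-1D receptor of arterial smooth muscle, had 27 counts in 3 of 5 HSA-NRTN libraries and 24 counts in 3 of 5 wild-type libraries, a ratio of pooled CPM of 1.19 (95% counting interval 0.661 to 2.15). The mean over libraries ran the other way, at 0.86 ± 1.13 CPM in HSA-NRTN mice and 1.06 ± 1.34 CPM in wild-type mice (SD, n = 5 each), so Adra1d has no settled direction. Adrb3, the beta-3 receptor of adipose tissue, had 38 counts in 3 HSA-NRTN libraries and 29 counts in 4 wild-type libraries, a ratio of 1.39 (0.832 to 2.33). By library, Adra1d had 0, 0, 6, 19 and 2 counts in HSA-NRTN replicates 1 to 5, against 0, 1, 12, 0 and 11 in wild-type replicates 1 to 5. Adrb3 had 0, 0, 5, 17 and 16 counts in HSA-NRTN replicates 1 to 5, against 3, 0, 6, 6 and 14 in wild-type replicates 1 to 5. Both genes were counted in the HSA-NRTN females and at 0 in the HSA-NRTN males. No difference between genotypes was detectable in an exact two-sided permutation test of mean CPM (p = 0.889 for Adra1d and 0.817 for Adrb3, n = 5 each), where the smallest p this design allows is 0.00794. Both share exon bases with an antisense gene, 147 bases for Adra1d and 839 for Adrb3, and the library kit does not mark strand. Adra2b had 0 counts in HSA-NRTN and 1 count in wild-type libraries, and Adrb1, the beta-1 receptor best known from heart, had 2 counts in HSA-NRTN replicate 2 and 0 in wild-type libraries. A count of 0 allows up to 0.138 CPM over the HSA-NRTN group and up to 0.13 CPM over the wild-type group, or 0.428 to 1.62 CPM in a single library. These floors and intervals reflect counting error alone, as reads copied by PCR without molecular tags are not separate molecules. In the authors' deposited table Adra1d and Adrb3 had adjusted p of 0.977 and 0.986.

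Scaled by length, as CPM per kb of merged exon, the order of levels over all 10 libraries was Adra2c, Adra2a, Adra1b, Adra1a, Adra1d, Adrb3, Adrb1 and Adra2b. The leading members averaged 4.53 ± 6.88 (Adra2c), 3.43 ± 3.61 (Adra2a), 3.17 ± 3.18 (Adra1b) and 2.11 ± 1.34 (Adra1a) CPM per kb (SD, n = 10). None of these neighbours differed beyond their spread (exact paired sign-flip tests, adjusted p from 0.919 to 0.998 over 7 pairs). These tests pool both genotypes. The means of Adra2c and Adra2a, and of Adra1b and Adra1a, differed in opposite directions between the genotypes, so the tests do not show equal levels. The step that passed was from Adra1a to Adra1d, with Adra1a higher in 10 of 10 libraries (mean difference 1.61 CPM per kb, exact adjusted p = 0.0137). In HSA-NRTN pools Adra2a (5.67 ± 3.96) and Adra1b (5.13 ± 3.6 CPM per kb) led, ahead of Adra2c (2.06 ± 1.17) and Adra1a (1.36 ± 0.93). In wild-type pools Adra2c (7 ± 9.48) and Adra1a (2.87 ± 1.33 CPM per kb) led, ahead of Adra1b (1.22 ± 0.522) and Adra2a (1.18 ± 1.04). The lead of Adra2c, over all libraries and in wild-type pools, rested on wild-type replicate 1, at 23.9 CPM per kb beside 2.14 to 3.81 in the other wild-type libraries. Without it the order over 9 libraries began with Adra2a (3.76 ± 3.67) and Adra1b (3.37 ± 3.31), followed by Adra2c (2.37 ± 1.02) and Adra1a (2.17 ± 1.41 CPM per kb), and in the 4 wild-type libraries left Adra1a (3.19 ± 1.28) stood before Adra2c (2.77 ± 0.756 CPM per kb). By class, the alpha-1 genes held 38.5% to 57.5% of the length-scaled sum in HSA-NRTN and 10.8% to 66.4% in wild-type libraries. The beta receptor genes together made up 0% to 10.5% of it in HSA-NRTN and 0% to 6.91% in wild-type libraries.

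**Figure D2:**
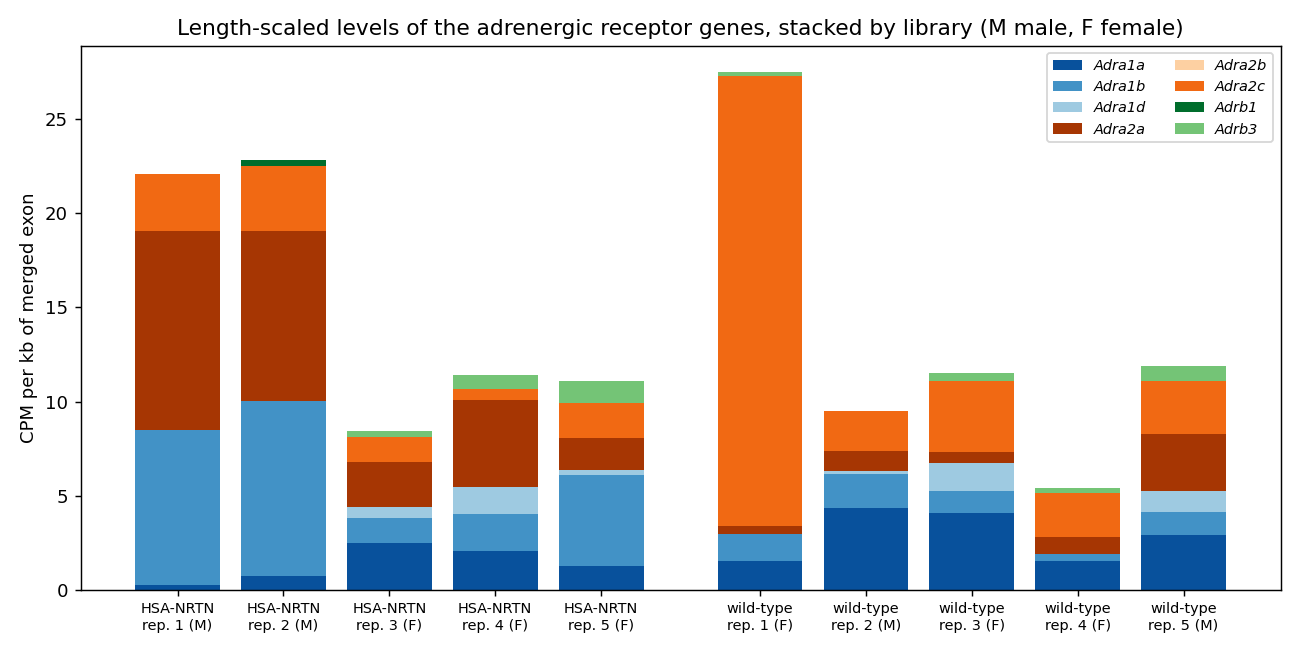
Length-scaled level (CPM per kb of merged exon) of the adrenergic receptor genes stacked for each library, HSA-NRTN on the left and wild-type on the right, with sex in brackets. Adra1b and Adra2a fill most of the bar in the HSA-NRTN males, and Adra2c (23.9 CPM per kb) fills that of wild-type replicate 1.

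Read against all genes, 1 of 11630 tested genes (0.0086%) passed an adjusted p of 0.05 for genotype in edgeR, and none of the 4 tested members was it. An unadjusted p under 0.05 was reached by 3 of the 4 tested members and by 4.83% of all genes tested. Of these, Adra2a and Adra1b were higher in HSA-NRTN pools, as were 2.41% of all genes, and Adra2c was lower, as were 2.42%. Without wild-type replicate 1 the edgeR unadjusted p of Adra2c was 0.465. The members were chosen with earlier results of these data known, so these shares do not show an enrichment among them. The groups overlapped for each tested member, while they did not for 1.25% of all genes, 0.645% higher and 0.602% lower in HSA-NRTN. In the deposited table of the authors 1 of 6 listed members and 1.05% of the genes with an adjusted p passed. For DESeq2 run here these were none of the members and 0.8% of genes without a covariate, and Adra2a and Adra1b and 1.24% of genes with sex as a covariate. The median log2 fold change was 0.50 over the 4 tested members and -0.01 over all tested genes. That median describes no member, as Adra2a and Adra1b lay above 2 and Adra1a and Adra2c below -1 on the log2 scale.

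**Figure D3:**
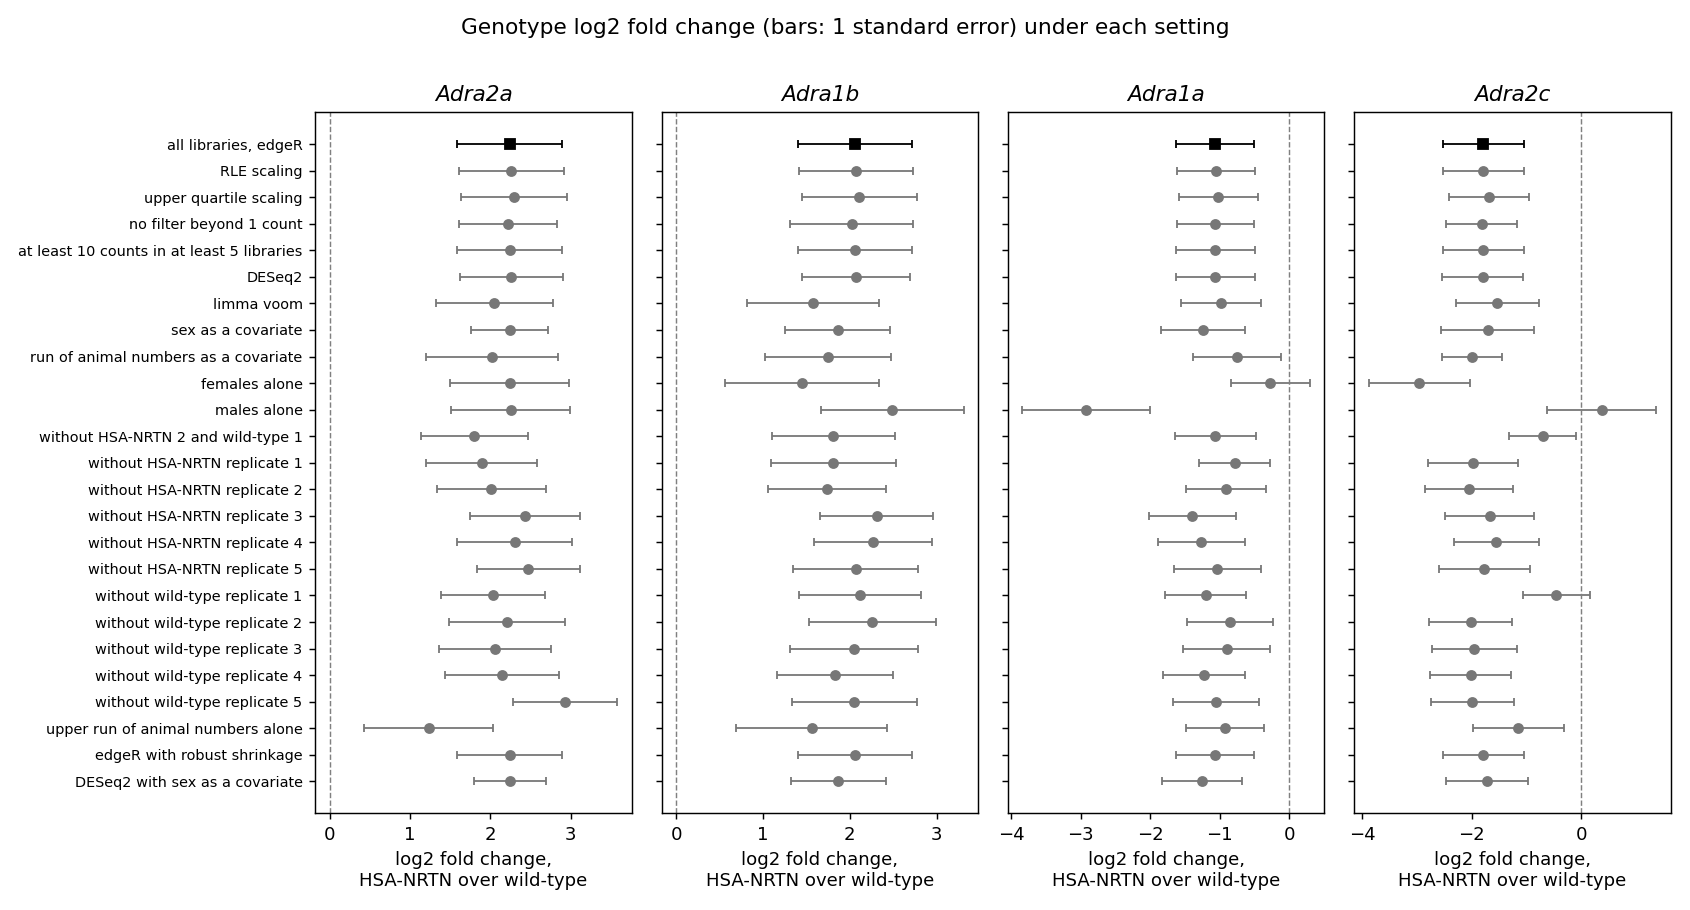
Log2 fold change of HSA-NRTN over wild-type for the tested adrenergic receptor genes under each setting, with bars of 1 standard error. Adra2a (1.23 to 2.93) and Adra1b (1.45 to 2.49) stay above 0 in all 24 alternatives, Adra1a (-2.92 to -0.27) stays below 0, and Adra2c moves from -1.79 to -0.46 without wild-type replicate 1 and to 0.37 in males alone.

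For genes that supply or remove the transmitter no difference was detectable. Th and Pnmt, which encode enzymes of catecholamine synthesis, had 0 counts in every library, Dbh, another, had 4 counts over the HSA-NRTN and 0 over the wild-type libraries, and the noradrenaline transporter gene Slc6a2 had 0 counts over the HSA-NRTN and 2 over the wild-type libraries. Of 5 tested genes of this list none had an unadjusted p under 0.05, with Maoa, which encodes a monoamine oxidase, at 54.2 ± 32.3 CPM in HSA-NRTN mice and 58.2 ± 18 CPM in wild-type mice (SD, n = 5 each). Ddc, the decarboxylase of amine synthesis, had 92 counts over the HSA-NRTN and 30 over the wild-type libraries (log2 fold change 2.48, SE 1.37, edgeR unadjusted p = 0.0891, adjusted p = 0.999). The vesicular monoamine transporter gene Slc18a2 was at 34.1 ± 16.4 CPM in HSA-NRTN mice and 30 ± 10.7 CPM in wild-type mice.

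Downstream of the receptors, no tested gene passed over all genes. Of the G protein alpha subunits, 9 of 10 were tested, with a median log2 fold change of 0.08. Gnaq, the partner of alpha-1 receptors, was at 238 ± 63.3 CPM in HSA-NRTN mice and 226 ± 36.7 CPM in wild-type mice (SD, n = 5 each). Gnao1, a partner of alpha-2 receptors, had a log2 fold change of 0.14 (SE 0.25). Of the phospholipase C beta genes, 2 of 4 were tested, and Plcb4 was at 138 ± 16.7 CPM in HSA-NRTN mice against 209 ± 53.7 CPM in wild-type mice (log2 fold change -0.60, SE 0.23, edgeR unadjusted p = 0.02, adjusted p = 0.913). Of 5 tested adenylyl cyclase genes all had a positive log2 fold change (median 0.51), but Adcy1 (0.01, SE 0.41) and Adcy2 (0.04, SE 0.37) hardly differed. The largest was that of Adcy5, at 27.9 ± 8.15 CPM in HSA-NRTN mice against 13 ± 7.17 CPM in wild-type mice (1.10, SE 0.49, edgeR unadjusted p = 0.0398, adjusted p = 0.981). Of 6 protein kinase A subunit genes 5 had a negative log2 fold change (median -0.09). Among these, Prkacb (-0.11, SE 0.27), Prkar1a (-0.06, SE 0.24) and Prkar1b (-0.06, SE 0.22) hardly differed. The regulatory subunit gene Prkar2b was at 78.1 ± 22.2 CPM in HSA-NRTN mice against 141 ± 74.6 CPM in wild-type mice (-0.85, SE 0.33, edgeR unadjusted p = 0.0202, adjusted p = 0.913). Among the 3 tested PDE4 phosphodiesterase genes and the 8 tested genes of receptor kinases, arrestins and RGS proteins none had an unadjusted p under 0.05, and their medians were 0.02 and 0.19.

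**Figure D4:**
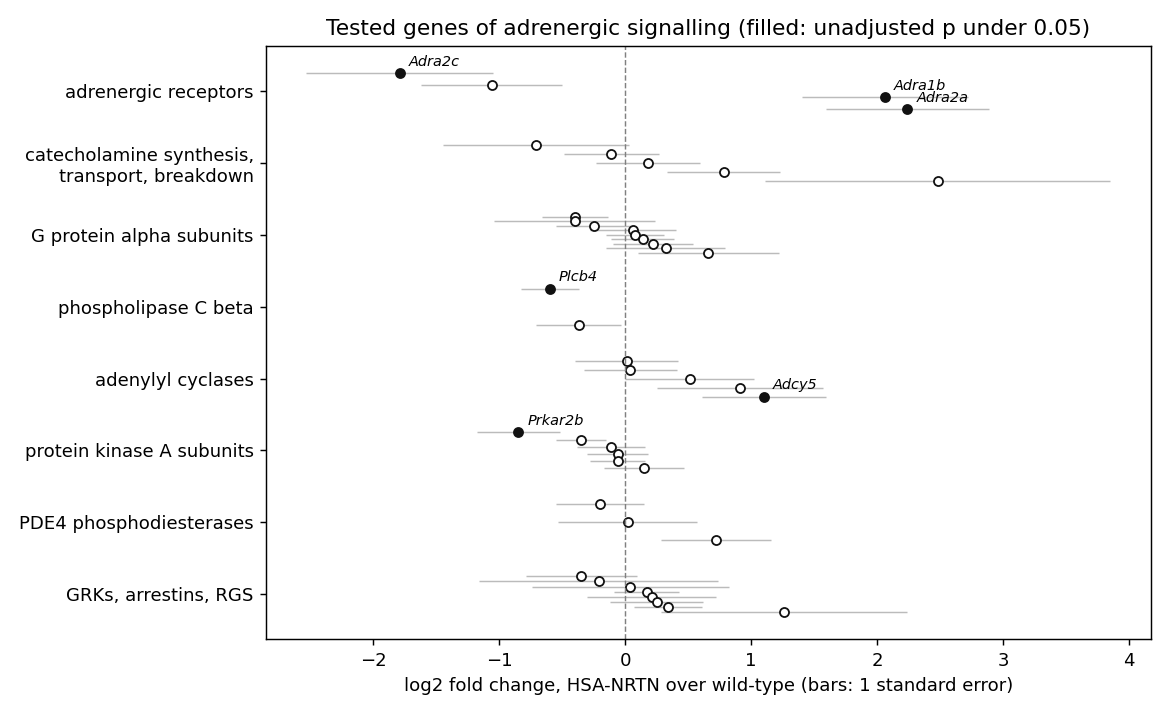
Log2 fold change of HSA-NRTN over wild-type with 1 standard error for each tested gene of the adrenergic receptor list and of 7 lists of related genes. Filled points have an unadjusted p under 0.05. Adra2a and Adra1b (2.24 and 2.06) lie to the right of most other genes shown, and Plcb4, Adcy5 and Prkar2b are the named points outside the receptors.

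Over the 10 libraries, the genes whose log2 CPM followed each tested member most closely were named as a description. For Adra2a these were Dcakd (Pearson r = 0.93) and Shisa9 (0.92), for Adra1b Aff2 (0.94) and Olfm1 (0.93), for Adra1a Pcdh20 (0.92) and Zc3h12c (0.90), and for Adra2c Ppwd1 (0.95) and Dcun1d2 (0.94). The points share library, depth, genotype and sex, and the genes were picked for the highest r among tested genes with a conventional symbol, chromosome 18 left out. Shisa9 had counts in 6 libraries. Dcun1d2 was at 74.1 ± 13.8 CPM in HSA-NRTN mice and 129 ± 102 CPM in wild-type mice (SD, n = 5 each).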

How the data were processed

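Polyadenylated RNA of 10 motor neuron pools, 5 HSA-NRTN and 5 wild-type, was sequenced after Smart-seq2 and Tn5 tagmentation, per the labels' protocols. The deposited count files hold raw counts per gene, and the submitters' processing notes list STAR 2.5.0a, HTSeq and the build GRCm38.p6. How HTSeq treated ambiguous reads or which annotation it used is not stated there, so reads shared between genes could be lost or misassigned. Spike-in entries (92) and tally entries (5, 57.6% to 86.5% of all reads listed) stayed out of library sizes. The authors' deposited table holds a mean signal, a log2 fold change and its standard error, a score (the test statistic), and raw and adjusted p-values. DESeq2 is listed in the notes with no role. For Adrb3 the deposited score and log2 fold change have opposite signs. For Adra1d the score was -0.548 beside a log2 fold change of -0.0531 with an SE of 0.304. The deposited log2 fold changes are thus not simply the score times the SE, and whether they were shrunk towards 0 is not stated. A further deposited table of scaled values, with 10 library columns, was not used.

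Counts were analysed with edgeR 4.0.16 in R 4.3.3. Genes were kept by filterByExpr for genotype (11630), libraries were scaled by TMM, and genotype was tested by the quasi-likelihood F test, with Benjamini-Hochberg adjustment over all genes tested and calls under 0.05. Sex was tested with genotype in the model, and their interaction with both. Members removed by the filter were compared by exact permutation tests. DESeq2 1.42.0 and limma 3.58.1 were alternatives. CPM uses TMM-scaled sizes of the kept genes, and exon lengths come from GENCODE M21. Likeness used Pearson correlation of log2(CPM + 0.5), the 2 best genes per tested member with a conventional symbol, chromosome 18 left out. From the lists of related genes, at most 3 with an unadjusted p under 0.05 per list were named by rule, and others as examples after their values were seen. The tests were also tried on simulated counts, drawn once from each gene's mean level and edgeR's estimate of its spread in these libraries. No effect of sex or run was put in. There edgeR recovered 35.8% of genes changed 4-fold, with 3 false among its 74 calls. DESeq2 without a covariate recovered 49.3%, with 26 false among its 128 calls, and limma voom 34.3%, with 1 false among 65. A change of that size was thus often missed in this simulation, and DESeq2 made more false calls in it. As the spread came from edgeR, it does not rank the tools in general. DESeq2 with sex as a covariate was not tried. The members and lists were chosen with earlier results of these data known. The p-values rest on the spread between libraries, each made from 1 pool of 1 mouse. Differences between mice and those of capture or library preparation cannot be told apart in it.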

Additional observations from a re-analysis of the deposited data

Results flagged for a closer look

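In 2 groups of 5 libraries, out of 14 groups checked, 1 library lay far from the others, besides the groups with 1 or 2 counts named below. For normally spread values chance marks about 1 group in 20, and for skewed CPM that rate may be higher. Adra2c in wild-type replicate 1 reached 82.4 CPM on 359 counts, with its fellow wild-type libraries between 7.36 and 13.1 CPM. Adra2a in wild-type replicate 5 reached 14.5 CPM, with the others between 2.07 and 5.1 CPM, and without it the log2 fold change of Adra2a was 2.93 (SE 0.65, edgeR adjusted p = 0.216). Adrb1 in HSA-NRTN replicate 2 was at 1.08 CPM and Adra2b in wild-type replicate 4 at 0.172 CPM, where the other libraries of the group had 0 counts. These last values rest on 2 counts and 1 count, and a single library with counts among zeros meets this criterion whatever its value.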

How the results depend on the processing

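The count of genes called for genotype was 1 with all libraries. It was 81 with no filter beyond 1 count, 126 in DESeq2, 3 in limma voom, 5 with sex as a covariate, and 0 with the run of animal numbers as a covariate (706 at an unadjusted p under 0.05, edgeR), in females alone (566) and in males alone (653). Among alternatives chosen after seeing the data it was 187 in DESeq2 with sex as a covariate, 9 in edgeR with robust shrinkage and 2 within the upper run of animal numbers. Leaving out 1 library gave 0 to 13, the 0 without wild-type replicate 2 and the 13 without HSA-NRTN replicate 3. Adra2a, Adra1b and Adra1a kept their direction in 24 of 24 alternatives, with log2 fold changes of 1.23 to 2.93, 1.45 to 2.49 and -2.92 to -0.27. Leaving out 1 library gave 1.89 to 2.93 for Adra2a, 1.74 to 2.31 for Adra1b, -1.39 to -0.78 for Adra1a and -2.05 to -0.46 for Adra2c. Adra2c turned to 0.37 in males alone, and the cause was not tested. Adjusted p lay between 0.000221 and 1 for Adra2a and between 0.0493 and 1 for Adra1b, and both passed only in DESeq2 with sex as a covariate. The order of levels without wild-type replicate 1 was also worked out after seeing the data. No paired analysis was possible because the labels give no replicate number shared between the genotypes. A depth of 1875971 to 6641695 gene counts limits what can be said of Adra1d, Adra2b, Adrb1 and Adrb3, which had few counts.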
